A study of Homo sapiens with 12 samples.

Results

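10 genes that drive cells through mitosis were followed in MOLM-13 and OCI-AML2, established human acute myeloid leukaemia cell lines. They were taken by symbol: the kinase CDK1, its cyclins CCNA2, CCNB1 and CCNB2, its activating phosphatase CDC25C, the kinases PLK1, AURKA and AURKB, and, on the side of protein destruction, CDC20 and UBE2C. All 10 were present in the count tables of both lines, among 18304 gene symbols found in either table, and all 10 passed the filter on low counts in both. MOLM-13 cells were kept for 36 h with 75 nM selinexor or with vehicle (DMSO), and OCI-AML2 cells for 36 h with 200 nM selinexor or with vehicle, so that line and dose cannot be told apart. Selinexor is an inhibitor of XPO1, the receptor that carries proteins out of the nucleus. Each of the 4 groups had 3 libraries, which the submitters describe as biologically independent, and the question is how selinexor changed gene expression in each line. Both lines came as cultured cells with no genetic change named in the labels.

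Entry into mitosis depends on CDK1, a kinase that is inactive without a cyclin. Cyclin A2 partners CDK1 and CDK2 from S phase onwards, and the B cyclins partner CDK1 at the start of mitosis. CDC25C removes inhibitory phosphates from CDK1, PLK1 and AURKA promote that activation and spindle formation, and AURKB corrects attachments of chromosomes to the spindle as part of the chromosomal passenger complex. Mitosis ends when the anaphase-promoting complex (APC/C), a ubiquitin ligase switched on by CDC20, marks cyclin B and securin for destruction with UBE2C as its ubiquitin-conjugating enzyme. In cycling cells the mRNAs of these genes peak in G2 and M, and many of their promoters carry CCAAT boxes, bound by NF-Y, and a cell cycle genes homology region with the core TTTGAA, bound by MuvB complexes.

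The promoters of 8 of the 10 genes were found, as 13 windows, in a RefSeq table on GRCh38.p14. Each window holds 250 bases before a gene start and 50 bases from it. TTTGAA, on either strand, was present in 7 of the 13 windows, from 5 of the 8 genes (CDK1, CCNB2, CDC20, CDC25C and PLK1), and in 15.2% of all 35116 windows in the table. CCAAT, on either strand, was present in 11 of the 13 windows, with at least 1 for each of the 8 genes, and in 34.6% of all windows. Both motifs together were present in 7 of the 13 windows, from 5 of the 8 genes, and in 5.90% of all windows. Windows of 1 gene can overlap, so they are not independent. The motifs do not overlap each other by their letters, and a match here is a description of sequence, not of binding. The 5 windows below are shown because they hold the range of arrangements in the set: a single TTTGAA close to the start (CCNB2, PLK1, CDC25C), several (CDK1) and none (CCNB1). Capitals mark the core TTTGAA, which is written TTCAAA where the match lies on the other strand. They also mark the box CCAAT, which is written ATTGG where the match lies on the other strand. Each sequence is the gene's own strand, read 5′ to 3′.
CCNB2, chr15:59104896-59105195, plus strand: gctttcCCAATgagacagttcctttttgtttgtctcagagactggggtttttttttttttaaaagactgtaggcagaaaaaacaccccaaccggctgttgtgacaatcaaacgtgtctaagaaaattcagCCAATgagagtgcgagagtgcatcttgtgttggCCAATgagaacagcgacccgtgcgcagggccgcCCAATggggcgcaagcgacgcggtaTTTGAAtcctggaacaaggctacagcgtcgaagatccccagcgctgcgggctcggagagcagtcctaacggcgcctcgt
PLK1, chr16:23678639-23678938, plus strand: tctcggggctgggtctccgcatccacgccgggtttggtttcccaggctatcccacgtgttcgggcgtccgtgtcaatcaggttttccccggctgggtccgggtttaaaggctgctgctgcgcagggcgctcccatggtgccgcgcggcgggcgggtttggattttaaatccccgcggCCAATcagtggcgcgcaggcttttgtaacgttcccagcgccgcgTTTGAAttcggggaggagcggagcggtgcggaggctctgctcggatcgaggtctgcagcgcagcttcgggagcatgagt
CDC25C, chr5:138331755-138332054, minus strand: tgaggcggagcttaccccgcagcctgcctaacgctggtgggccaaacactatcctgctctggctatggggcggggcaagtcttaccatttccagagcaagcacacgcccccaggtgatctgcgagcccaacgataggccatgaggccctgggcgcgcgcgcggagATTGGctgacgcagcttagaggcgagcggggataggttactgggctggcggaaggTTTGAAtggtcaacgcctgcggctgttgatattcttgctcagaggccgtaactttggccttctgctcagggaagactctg
CDK1, chr10:60778228-60778527, plus strand: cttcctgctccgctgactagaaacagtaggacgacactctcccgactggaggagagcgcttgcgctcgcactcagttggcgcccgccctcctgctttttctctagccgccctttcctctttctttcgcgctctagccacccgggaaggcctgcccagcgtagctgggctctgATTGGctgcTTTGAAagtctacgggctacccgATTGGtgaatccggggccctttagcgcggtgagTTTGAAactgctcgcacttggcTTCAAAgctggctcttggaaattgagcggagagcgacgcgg
CCNB1, chr5:69166900-69167199, plus strand: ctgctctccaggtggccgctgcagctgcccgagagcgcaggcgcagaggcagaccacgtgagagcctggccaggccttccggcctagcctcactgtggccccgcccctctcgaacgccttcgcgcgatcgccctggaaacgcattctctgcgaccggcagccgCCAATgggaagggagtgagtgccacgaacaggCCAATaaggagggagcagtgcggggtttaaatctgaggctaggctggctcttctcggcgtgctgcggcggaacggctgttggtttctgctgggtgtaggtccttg
Counted from the start, TTTGAA began at position -29 in CCNB2 and PLK1 and at -30 in this window of CDC25C, 1 of 4 listed for that gene. In the CDK1 window it began at -69 and -13, with the reverse form at 10. In CCNB2 a CCAAT box began at -54, ahead of TTTGAA, and 3 more lay at -87, -120 and -244. CCNB1 had CCAAT at -87 and -55 and no TTTGAA within these letters.

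Total counts ranged from 8114892 to 9711704 in MOLM-13 selinexor libraries and from 8160133 to 9444344 in MOLM-13 vehicle libraries. In OCI-AML2 they ranged from 8650518 to 9774423 with selinexor and from 9506571 to 11769061 with vehicle. At these depths 3 counts equalled 0.255 to 0.370 CPM (counts scaled to library size), and the gene of the 10 with the fewest counts, CDC25C, had 58 to 181 counts in a library. Libraries of a group correlated at Spearman's rho of 0.986 to 0.990 over genes. Of 12 myeloid marker genes 11 had a count in at least 1 library of each line, and CD34, a progenitor marker, was at 0 in both. ANPEP had group means of at most 0.112 CPM, under the floor of 3 counts, and KIT averaged 0.107 CPM with selinexor and 0.220 CPM with vehicle in OCI-AML2, also under it. In MOLM-13 KIT averaged 0.491 CPM with selinexor, above the floor, and 0.118 CPM with vehicle, under it. The summed level of the 12 was 3090 to 3124 CPM with selinexor and 1395 to 1415 CPM with vehicle in MOLM-13, and 11581 to 11855 CPM with selinexor and 3066 to 3280 CPM with vehicle in OCI-AML2. LYZ, which encodes lysozyme, made up most of the OCI-AML2 sum, with means of 9580 CPM with selinexor and 1735 CPM with vehicle. MPO, by contrast, averaged 8.03 CPM with selinexor and 11.6 CPM with vehicle there, and CD33 60.6 CPM with selinexor and 60.7 CPM with vehicle. In MOLM-13 LYZ averaged 958 CPM with selinexor and 116 CPM with vehicle, and CEBPA 1180 CPM with selinexor and 603 CPM with vehicle. All 3 erythroid markers were at 0, and 5 lymphocyte markers summed to at most 2.87 CPM. The 3 endothelial markers summed to 14.4 to 15.6 CPM with selinexor and 7.85 to 8.97 CPM with vehicle in MOLM-13, and to 88.6 to 91.1 CPM with selinexor and 50.6 to 60.1 CPM with vehicle in OCI-AML2. Nearly all of this was PECAM1, which myeloid cells also express, since neither CDH5 nor VWF averaged more than 0.0753 CPM. The 3 epithelial markers summed to 23.2 to 26.1 CPM with selinexor and 8.06 to 8.63 CPM with vehicle in MOLM-13, and to at most 0.628 CPM in OCI-AML2, and KRT8 carried the MOLM-13 sum while EPCAM was at 0.

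All 10 genes fell with selinexor in both lines, each with its 3 selinexor libraries below its 3 vehicle libraries. In MOLM-13 the median log2 fold change of the 10 was -1.96, with a range from -2.33 (UBE2C) to -1.06 (CDC25C), against a median of 0.0091 over the 11807 genes tested. In OCI-AML2 the median was -1.35, with a range from -1.59 (AURKB) to -0.38 (CDC25C), against -0.0016 over the 12086 genes tested. Changes were common in these data: 31.8% of tested genes were called lower in MOLM-13 and 31.8% in OCI-AML2 by edgeR's quasi-likelihood test at a Benjamini-Hochberg adjusted p under 0.05. Groups lay apart, lower with selinexor, for 32.8% of genes in MOLM-13 and 33.3% in OCI-AML2. Falls of at least 2-fold were rarer, at 3.57% of tested genes in MOLM-13 and 2.85% in OCI-AML2. By that measure 10 of the 10 genes were called in MOLM-13 and 9 of the 10, without CDC25C, in OCI-AML2. Added together, the 10 genes took 322 to 338 CPM of the raw library totals in MOLM-13 selinexor libraries, against 1316 to 1332 in MOLM-13 vehicle libraries. In OCI-AML2 the sum was 588 to 594 CPM with selinexor, against 1569 to 1596 with vehicle. Fewer cells in G2 and M and less of these mRNAs per cell cannot be told apart in bulk RNA.

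**Figure D1:**
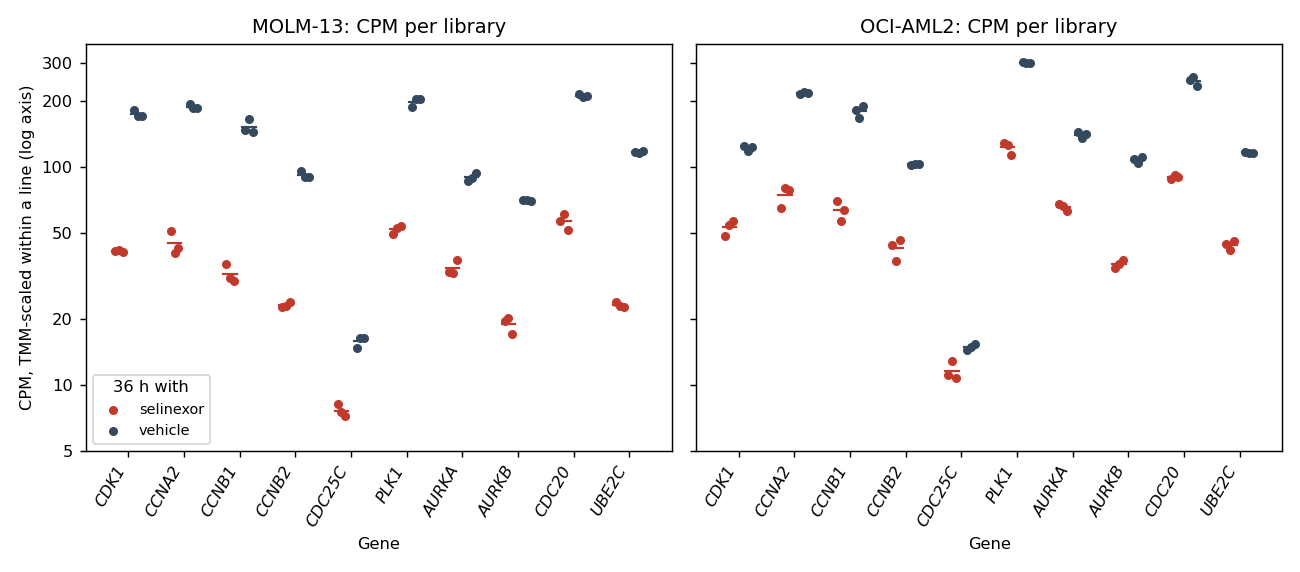
CPM of the 10 genes in each library, TMM-scaled within a line, on a log axis, for MOLM-13 (left panel) and OCI-AML2 (right panel). Points are libraries (3 a group) and short lines group means. Selinexor libraries (red) lie below vehicle libraries (dark) for all 10 genes in both lines, and CDC25C in OCI-AML2 shows the smallest gap.

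The kinase at the centre of the set, CDK1 (chromosome 10, 60778331 to 60794852 on GRCh38, 10 exons in GENCODE 29), had 41.2, 41.7 and 40.7 CPM in MOLM-13 selinexor libraries, against 183, 172 and 170.3 CPM in MOLM-13 vehicle libraries. In OCI-AML2 it had 48.4, 54.2 and 56.8 CPM with selinexor, against 124, 118 and 123 CPM with vehicle. The 3 treated MOLM-13 libraries lay within 1 CPM of each other, and in both lines the gap between groups was far wider than the spread within them. The log2 fold change of CDK1 was -2.08 ± 0.0575 (SE, edgeR adjusted p = 4.99e-56) in MOLM-13 and -1.20 ± 0.0614 (SE, edgeR adjusted p = 4.95e-21) in OCI-AML2.

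CCNA2, cyclin A2 (chromosome 4, 121816444 to 121823933), had 51.0, 40.4 and 42.6 CPM in MOLM-13 selinexor libraries, against 195, 187 and 185 CPM in MOLM-13 vehicle libraries. OCI-AML2 libraries had 64.9, 80.1 and 78.5 CPM with selinexor, against 216, 220.3 and 218 CPM with vehicle. Its log2 fold change was -2.08 ± 0.0582 (SE) in MOLM-13 and -1.55 ± 0.0562 (SE) in OCI-AML2, the second lowest of the 10 there. On the opposite strand 254 exonic bases of CCNA2 lie over EXOSC9, and reads of the pair cannot be told apart in these libraries, which do not keep strand.

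CCNB1, cyclin B1 (chromosome 5, 69167010 to 69178245), had 35.8, 30.9 and 29.9 CPM in MOLM-13 selinexor libraries, against 148, 165 and 144 CPM in MOLM-13 vehicle libraries. It had 69.8, 56.5 and 63.7 CPM in OCI-AML2 selinexor libraries, against 183, 168 and 189 CPM in OCI-AML2 vehicle libraries. The log2 fold changes were -2.24 ± 0.0650 (SE) in MOLM-13, where only UBE2C of the 10 fell further, and -1.51 ± 0.0616 (SE) in OCI-AML2. CCNB2, cyclin B2 (chromosome 15, 59105078 to 59125045), had 22.7, 23.1 and 23.99 CPM in MOLM-13 selinexor libraries, against 96.1, 89.7 and 89.9 CPM in MOLM-13 vehicle libraries. In OCI-AML2 it had 44.0, 36.9 and 46.4 CPM with selinexor, against 102, 103 and 103 CPM with vehicle. Its log2 fold change was -1.98 ± 0.0749 (SE) in MOLM-13 and -1.28 ± 0.0680 (SE) in OCI-AML2. EdgeR's adjusted p for both B cyclins was at most 2.12e-44 in MOLM-13 and 3.1e-20 in OCI-AML2.

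CDC25C, the phosphatase that activates CDK1 (chromosome 5, 138285265 to 138338355), moved least of the 10 in both lines. It had 8.19, 7.51 and 7.25 CPM in MOLM-13 selinexor libraries, against 14.8, 16.4 and 16.4 CPM in MOLM-13 vehicle libraries, a log2 fold change of -1.06 ± 0.148 (SE, edgeR adjusted p = 7.82e-10). In OCI-AML2 its level was 11.1, 12.8 and 10.7 CPM with selinexor, against 14.5, 15.02 and 15.5 CPM with vehicle, and the highest treated library came within 2 CPM of the lowest vehicle library. The log2 fold change there was -0.38 ± 0.127 (SE, edgeR adjusted p = 0.00873), with a 95% confidence interval from -0.63 to -0.12. CDC25C shares 293 exonic bases with FAM53C on the other strand, and reads of the pair cannot be told apart.

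PLK1, the polo-like kinase of centrosome maturation and mitotic entry (chromosome 16, 23677656 to 23690367), had 49.4, 52.2 and 53.6 CPM in MOLM-13 selinexor libraries, against 188, 205 and 204 CPM in MOLM-13 vehicle libraries. In OCI-AML2 it had 129, 127 and 113 CPM with selinexor, against 303, 298 and 299 CPM with vehicle. The groups lay apart in both lines, with log2 fold changes of -1.94 ± 0.0542 (SE) in MOLM-13 and -1.29 ± 0.0461 (SE) in OCI-AML2. Exons of PLK1 overlap 553 bases of the antisense transcript AC008870.3 and 42 bases of ERN2 on the other strand, whose reads cannot be told apart from it.

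Both Aurora kinases fell in both lines. AURKA, which acts at centrosomes and spindle poles (chromosome 20, 56369389 to 56392337), had 32.99, 32.7 and 37.6 CPM in MOLM-13 selinexor libraries, against 86.5, 88.7 and 93.3 CPM in MOLM-13 vehicle libraries. It had 67.4, 66.5 and 62.6 CPM in OCI-AML2 selinexor libraries, against 145, 136 and 141 CPM in OCI-AML2 vehicle libraries. After CDC25C it moved least in both lines, with log2 fold changes of -1.38 ± 0.0702 (SE) in MOLM-13 and -1.10 ± 0.0556 (SE) in OCI-AML2. AURKB, the kinase of the chromosomal passenger complex (chromosome 17, 8204733 to 8210600), had 19.6, 20.3 and 17.1 CPM in MOLM-13 selinexor libraries, against 70.3, 70.3 and 69.6 CPM in MOLM-13 vehicle libraries. OCI-AML2 libraries had 34.3, 35.9 and 37.4 CPM with selinexor, against 109, 105 and 111 CPM with vehicle. The log2 fold change of AURKB was -1.87 ± 0.0840 (SE) in MOLM-13 and -1.59 ± 0.0649 (SE) in OCI-AML2, where it had the lowest value of the 10.

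CDC20, the activator that brings substrates to the APC/C during mitosis (chromosome 1, 43358955 to 43363203), had 56.5, 60.9 and 51.2 CPM in MOLM-13 selinexor libraries, against 215, 209.5 and 210.3 CPM in MOLM-13 vehicle libraries. It had 88.0, 91.3 and 89.6 CPM in OCI-AML2 selinexor libraries, against 250.01, 257 and 235 CPM in OCI-AML2 vehicle libraries. The treated libraries were all below the vehicle libraries, with log2 fold changes of -1.91 ± 0.0530 (SE) in MOLM-13 and -1.46 ± 0.0483 (SE) in OCI-AML2. UBE2C, the ubiquitin-conjugating enzyme that works with the APC/C (chromosome 20, 45812576 to 45816957), had 23.99, 23.1 and 22.7 CPM in MOLM-13 selinexor libraries, against 117, 115 and 118 CPM in MOLM-13 vehicle libraries. In OCI-AML2 it had 44.1, 41.4 and 46.0 CPM with selinexor, against 117, 116 and 116 CPM with vehicle. The groups lay apart in both lines, by more in MOLM-13. The log2 fold changes were -2.33 ± 0.0703 (SE) in MOLM-13 and -1.41 ± 0.0617 (SE) in OCI-AML2.

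**Figure D2:**
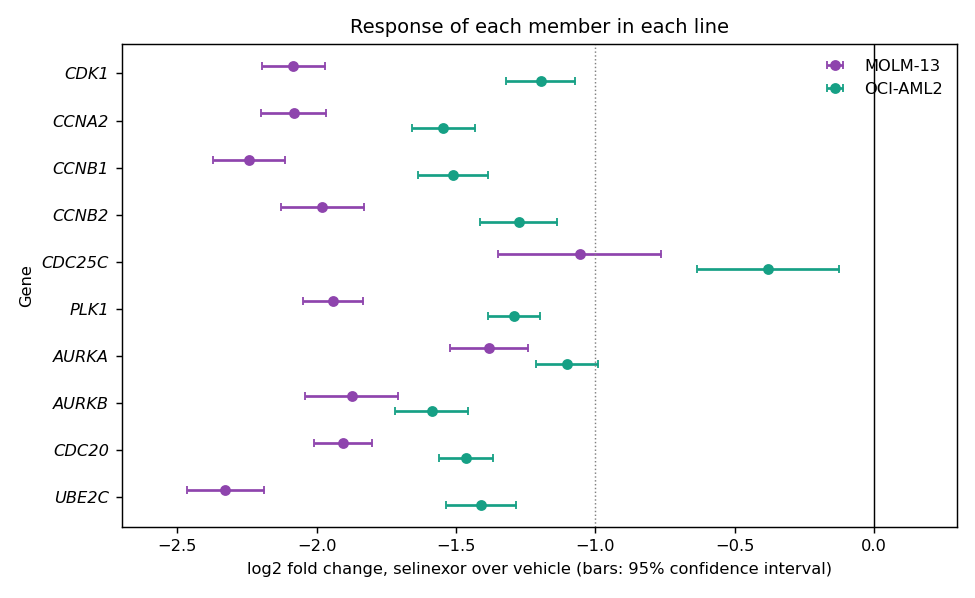
Log2 fold change, selinexor over vehicle, of each gene in MOLM-13 (purple, upper point) and OCI-AML2 (green, lower point). Bars are 95% confidence intervals computed from edgeR's F statistic with 3 libraries a group, and the dotted line marks a 2-fold fall. All points lie left of 0, from -2.33 for UBE2C in MOLM-13 to -0.38 for CDC25C in OCI-AML2.

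Ranked among all tested genes by log2 fold change, the falls of 4 members in MOLM-13 were within the first 26 of 11807: UBE2C was 11th, CCNB1 14th, CDK1 25th and CCNA2 26th. CDC25C ranked 386th there. In OCI-AML2 AURKB ranked 57th, CCNA2 67th and CCNB1 70th of 12086, and CDC25C ranked 2467th. For MOLM-13 the authors' deposited table gives vehicle over selinexor. With its sign turned, the authors' deposited table holds -2.10 for CDK1, -1.07 for CDC25C and -2.34 for UBE2C, and over the 10 genes its largest difference from the values computed here was 0.015. Its standard errors were larger than those computed here for each of the 10 genes, such as 0.193 against 0.148 for CDC25C.

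Ratios between members also differed between the groups. Ratios of 2 counts within a library need no scaling between libraries, and the pairs below were chosen after values had been seen. Each restates the difference between 2 of the fold changes given above. The share of other gene pairs whose groups lie apart was not counted, so a lack of overlap here is a description only. An exact permutation test of 3 against 3 libraries cannot go below p = 0.10, so none is given. AURKB counts per AURKA count were 0.594, 0.621 and 0.455 in MOLM-13 selinexor libraries, against 0.812, 0.792 and 0.746 in MOLM-13 vehicle libraries. The same ratio was 0.510, 0.540 and 0.598 in OCI-AML2 selinexor libraries, against 0.751, 0.769 and 0.785 in OCI-AML2 vehicle libraries. The groups did not overlap in either line, and the ratio was lower with selinexor in both. PLK1 counts per AURKA count also lay apart, at 1.496, 1.60 and 1.43 with selinexor and 2.17, 2.31 and 2.18 with vehicle in MOLM-13. In OCI-AML2 that ratio was 1.91, 1.90 and 1.81 with selinexor and 2.10, 2.19 and 2.12 with vehicle. CDC25C counts per CDK1 count went the other way, with 0.199, 0.180 and 0.178 in MOLM-13 selinexor libraries, against 0.0812, 0.0955 and 0.0965 in MOLM-13 vehicle libraries. In OCI-AML2 it was 0.229, 0.237 and 0.189 with selinexor, against 0.117, 0.127 and 0.126 with vehicle. CDC25C mRNA was thus more abundant per CDK1 count in all treated libraries, while its own level was lower. UBE2C counts per CDC20 count were 0.424, 0.380 and 0.444 in MOLM-13 selinexor libraries, all below the 0.546, 0.551 and 0.563 of MOLM-13 vehicle libraries. In OCI-AML2 they were 0.501, 0.453 and 0.513 with selinexor and 0.468, 0.452 and 0.495 with vehicle, which overlap, and the difference between the lines in this ratio was not tested. CCNB1 counts per CCNB2 count were 1.57, 1.33 and 1.24 with selinexor and 1.54, 1.84 and 1.60 with vehicle in MOLM-13, with overlapping groups. In OCI-AML2 the ratio was 1.59, 1.53 and 1.37 with selinexor, all below the 1.80, 1.63 and 1.84 with vehicle. CCNA2 counts per CDK1 count overlapped in MOLM-13, at 1.24, 0.968 and 1.05 with selinexor and 1.07, 1.09 and 1.09 with vehicle. In OCI-AML2 they were 1.34, 1.48 and 1.38 with selinexor, all below the 1.74, 1.86 and 1.77 with vehicle. CCNB1 counts per CDK1 count overlapped in both lines.

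**Figure D3:**
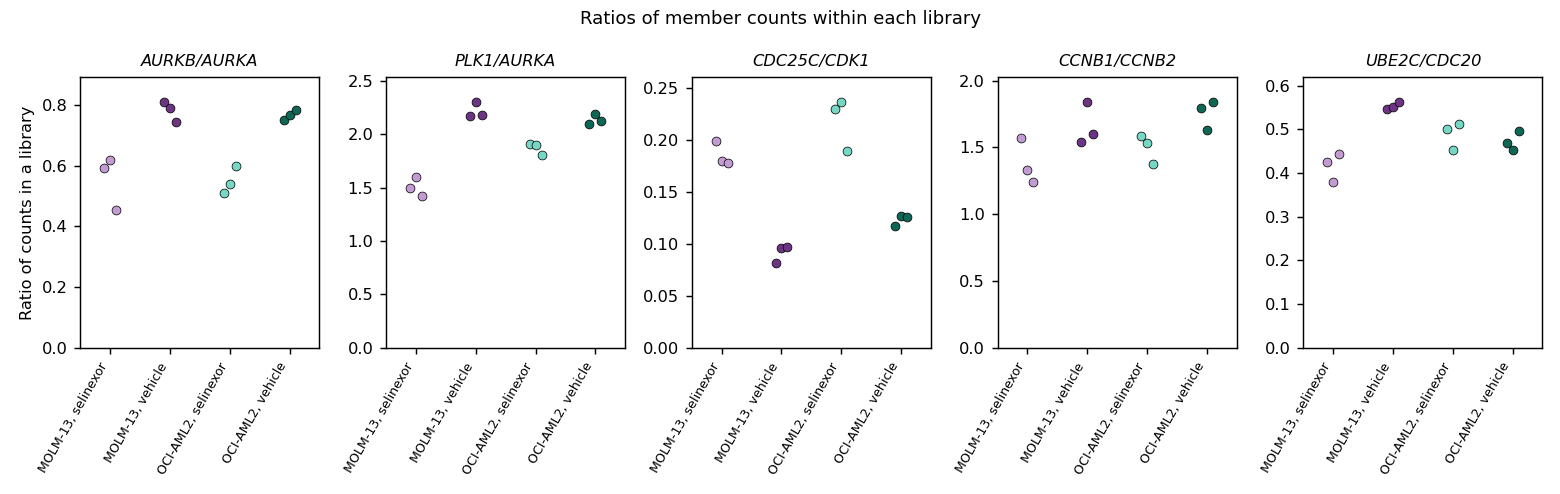
Ratio of the counts of 2 genes within each library, 1 point a library, for 5 pairs in the 4 groups. AURKB/AURKA and PLK1/AURKA lie lower and CDC25C/CDK1 higher with selinexor in both lines without overlap. UBE2C/CDC20 lies apart in MOLM-13 and overlaps in OCI-AML2.

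Levels of different genes were compared as joint-scaled CPM per kilobase of exon (RPKM), with 1 TMM scaling over the 12 libraries and union exon lengths from 1286 bases (UBE2C) to 4760 bases (PLK1). CDC20 had the highest RPKM in each group, with 27.7 ± 2.38 in MOLM-13 with selinexor and 105 ± 1.32 with vehicle, and 44.5 ± 0.802 in OCI-AML2 with selinexor and 119 ± 5.58 with vehicle (SD, n = 3 each). UBE2C followed at 18.2 ± 0.502 RPKM in MOLM-13 with selinexor and 91.7 ± 1.17 with vehicle, and at 34.5 ± 1.89 in OCI-AML2 with selinexor and 89.0 ± 0.432 with vehicle (SD, n = 3 each). CCNA2 came after UBE2C in all groups, from 16.01 ± 2.01 RPKM in MOLM-13 with selinexor to 76.5 ± 0.771 in OCI-AML2 with vehicle (SD, n = 3 each), and in MOLM-13 with selinexor its libraries overlapped those of UBE2C. CDC25C was last in each group, from 2.30 ± 0.147 RPKM in MOLM-13 with selinexor to 4.80 ± 0.281 in MOLM-13 with vehicle (SD, n = 3 each). The order depends on the exon lengths used. Before division by length, mean joint-scaled CPM in OCI-AML2 was higher for PLK1 than for CDC20, at 124 against 90.7 with selinexor and 295 against 243 with vehicle. In MOLM-13 it was lower for PLK1, at 51.9 against 56.4 with selinexor and 200 against 213 with vehicle.

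Between these ends the order differed by line. With vehicle, CDK1 had 44.8 ± 1.69 RPKM in MOLM-13, above PLK1 at 42.0 ± 2.04, and 30.5 ± 0.789 RPKM in OCI-AML2, where PLK1 had 62.0 ± 0.634 (SD, n = 3 each). Before division by length, mean joint-scaled CPM in MOLM-13 with vehicle was 176 for CDK1 and 200 for PLK1, the reverse order. AURKA and AURKB could not be ordered with vehicle, since their RPKM overlapped in both lines. With selinexor AURKA stood at 11.802 ± 0.940 RPKM and AURKB at 8.51 ± 0.754 in MOLM-13, and at 22.6 ± 0.827 and 16.2 ± 0.736 in OCI-AML2 (SD, n = 3 each), with no overlap between the 2 genes. In MOLM-13 with selinexor, CCNB1, AURKA, PLK1 and CDK1 formed a run from 12.6 ± 1.24 to 10.5 ± 0.123 RPKM (SD, n = 3 each) in which each neighbouring pair overlapped. In OCI-AML2 with selinexor the same held for CCNA2, PLK1, CCNB1 and AURKA, and again for AURKB, CCNB2 and CDK1.

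**Figure D4:**
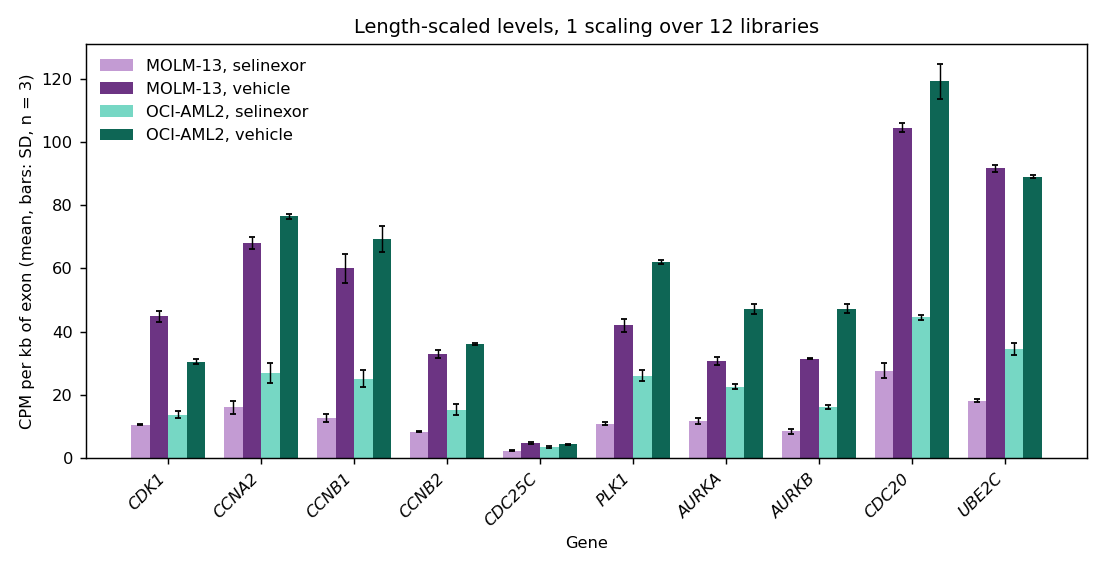
Mean level of each gene per kilobase of exon (RPKM, joint TMM scaling over 12 libraries) in the 4 groups, with SD bars (n = 3 each). CDC20 is highest and CDC25C lowest in each group, and MOLM-13 with selinexor (light purple) is the lowest bar for all 10 genes.

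The response was larger in MOLM-13 for each of the 10 genes. The difference of the log2 fold changes, MOLM-13 minus OCI-AML2, had a median of -0.71 over the 10, against -0.040 over the 12530 genes tested. It comes from 1 fit of both lines with joint scaling. The OCI-AML2 median of the 10 was -1.31 in that fit and -1.35 with the line fitted alone. The fold changes printed above for each line therefore do not subtract exactly to these differences. For each of the 10 genes the difference printed here lies near the most negative end of those from the other scalings and tests. These ran from -0.97 to -0.89 for UBE2C and from -0.34 to -0.26 for AURKB. On leaving out 1 library the range was -1.01 to -0.87 for UBE2C and -0.39 to -0.22 for AURKB. The interaction of line and treatment over 12 libraries was called lower for all 10 genes, and for 19.0% of tested genes (11.1% were called higher). It was largest for UBE2C, at -0.97 ± 0.0954 (SE, edgeR adjusted p = 2.58e-14), and for CDK1, at -0.94 ± 0.0854 (SE, edgeR adjusted p = 7.25e-16). The B cyclins differed by -0.78 ± 0.101 (CCNB1) and -0.75 ± 0.103 (CCNB2, both SE), and PLK1 by -0.70 ± 0.0720 (SE). CDC25C differed by -0.72 ± 0.195 (SE, edgeR adjusted p = 0.00235), CCNA2 by -0.59 ± 0.0892 (SE) and CDC20 by -0.49 ± 0.0737 (SE). The Aurora kinases differed least, AURKA by -0.33 ± 0.0896 (SE, edgeR adjusted p = 0.00251) and AURKB by -0.34 ± 0.107 (SE, edgeR adjusted p = 0.0109). Both lost the call without OCI-AML2 vehicle library 2, at -0.21 (adjusted p = 0.0679) for AURKA and -0.22 (adjusted p = 0.132) for AURKB. Over 18 alternatives the adjusted p ran from 0.000759 to 0.0679 for AURKA and from 0.00838 to 0.132 for AURKB. AURKB lost it as well without OCI-AML2 vehicle library 1 (-0.25) or 3 (-0.26), without MOLM-13 vehicle library 2 (-0.24), without MOLM-13 selinexor library 3 (-0.27) and with library totals as the only scaling (-0.26). The median over all tested genes moved too, from -0.040 with all libraries to 0.0480, 0.0485 and 0.0501 without OCI-AML2 vehicle library 1, 2 or 3. It was 0.0521 without MOLM-13 vehicle library 2, 0.0337 with library totals only and -0.0451 without MOLM-13 selinexor library 3. The part of this shift in the lost calls was not tested. Of all genes called for this difference 36.8% were higher in MOLM-13, 49.2% with upper quartile scaling and 53.0% with library totals only.

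With vehicle alone the lines differed in both directions. MOLM-13 was lower than OCI-AML2 for 6 of the 10 genes, against 36.2% of tested genes, and higher for 1, against 35.0%. The genes lower in MOLM-13 were AURKA, at -0.61 ± 0.0554 (SE), AURKB, at -0.59 ± 0.0613, PLK1, at -0.56 ± 0.0446, CCNB1, at -0.21 ± 0.0589, CDC20, at -0.19 ± 0.0454, and CCNA2, at -0.17 ± 0.0536. CDK1 was higher in MOLM-13, at 0.56 ± 0.0514 (SE, edgeR adjusted p = 6.25e-17). The other 3 were not called: CCNB2 at -0.12 ± 0.0602 (SE, edgeR adjusted p = 0.0583), CDC25C at 0.12 ± 0.124 (SE, 95% confidence interval -0.13 to 0.37) and UBE2C at 0.04 ± 0.0544 (SE, 95% confidence interval -0.07 to 0.15). CCNB2 was called under 7 of 12 alternatives, with adjusted p from 0.00724 to 0.161.

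With selinexor all 10 genes were lower in MOLM-13 than in OCI-AML2, each without overlap of the libraries, while 39.4% of tested genes were called lower and 40.1% lay lower without overlap. The differences ran from -1.26 ± 0.0561 (SE, edgeR adjusted p = 3.95e-36) for PLK1 to -0.38 ± 0.0683 (SE, edgeR adjusted p = 6.74e-07) for CDK1. CDK1 was thus higher in MOLM-13 than in OCI-AML2 with vehicle and lower with selinexor.

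Genes outside the set give the setting. XPO1, the target of the drug, had 597, 579 and 627 CPM with selinexor and 387, 365 and 389 CPM with vehicle in MOLM-13. In OCI-AML2 its level was 675, 692 and 682 CPM with selinexor and 465, 420.0 and 443 CPM with vehicle. XPO1 rose by 0.66 ± 0.0350 (SE) on the log2 scale in MOLM-13 and by 0.63 ± 0.0401 (SE) in OCI-AML2. XPO1 shares 494 exonic bases with the antisense transcript AC016727.1. CDKN1A, which encodes the CDK inhibitor p21, had 386, 406 and 404 CPM with selinexor and 131, 139 and 144 CPM with vehicle in MOLM-13. In OCI-AML2 it had 149, 139.9 and 139 CPM with selinexor and 52.5, 51.3 and 48.0 CPM with vehicle. CDKN1A rose by 1.53 ± 0.0405 (SE) in MOLM-13 and by 1.49 ± 0.0581 (SE) in OCI-AML2 on the log2 scale, and all treated libraries were above all vehicle libraries of the line. CDKN1A shares 146 exonic bases with DINOL on the other strand.

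Other regulators of the CDK1 switch fell as well. Of 14 tested in each line, 11 fell and 0 rose in MOLM-13 (median log2 fold change -1.32; 2 rose with upper quartile scaling), and 12 fell and 0 rose in OCI-AML2 (median -0.92). Of all tested genes, 31.8% were called lower in each line, and 31.8% were called higher in MOLM-13 and 31.3% in OCI-AML2. These shares are the background for all the lists that follow. Here and in the lists that follow, values are log2 fold changes ± SE from edgeR. TPX2, the activator of AURKA, stood at -1.73 ± 0.0521 in MOLM-13 and -1.28 ± 0.0463 in OCI-AML2, and GTSE1 stood at -2.13 ± 0.0896 in MOLM-13 and -1.57 ± 0.0700 in OCI-AML2. PKMYT1, a kinase that inhibits CDK1, stood at -1.49 ± 0.0642 in MOLM-13 and -0.92 ± 0.0646 in OCI-AML2, and WEE1, which does the same, stood at -1.26 ± 0.0864 in MOLM-13 and -0.55 ± 0.0787 in OCI-AML2. The mRNAs of enzymes on both the activating and the inhibiting side of CDK1 thus fell. In a list of CDK1 inhibitors and G2 arrest genes, 6 were tested in each line. In MOLM-13 CDKN1A, GADD45A and BTG2 rose and WEE1, PKMYT1 and GADD45B fell, the last not called under 6 alternatives, and in OCI-AML2 CDKN1A and BTG2 rose and WEE1 and PKMYT1 fell.

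Of 10 other mitotic kinases, 10 fell in MOLM-13 (median -1.58), and 9 fell and 1 rose in OCI-AML2 (median -1.14). Over all tested genes 31.8% were called lower in each line. BUB1, a kinase of the spindle checkpoint, stood at -1.94 ± 0.0607 in MOLM-13 and -1.498 ± 0.0608 in OCI-AML2. NEK2, a centrosomal kinase, stood at -2.03 ± 0.102 in MOLM-13 and -1.45 ± 0.0755 in OCI-AML2. VRK1, a kinase of chromatin and early mitosis, was the exception, with -0.23 ± 0.0636 in MOLM-13 and 0.14 ± 0.0586 in OCI-AML2. The rise in OCI-AML2 was not called under 8 of 13 alternatives, with adjusted p from 0.00412 to 0.233. The 3 partners of AURKB in the passenger complex fell in both lines: BIRC5 (survivin) at -2.17 ± 0.0677 in MOLM-13 and -1.58 ± 0.0521 in OCI-AML2, CDCA8 (borealin) at -1.84 ± 0.0818 in MOLM-13 and -1.62 ± 0.0671 in OCI-AML2, and INCENP at -1.30 ± 0.0631 in MOLM-13 and -1.12 ± 0.0516 in OCI-AML2.

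Of the 14 core subunits of the APC/C, 6 fell and 2 rose in MOLM-13 (median -0.19), where 31.8% of tested genes were called lower and 31.8% higher. In OCI-AML2 8 fell and 1 rose (median -0.23), where 31.8% of tested genes were called lower and 31.3% higher. The difference between the core subunits and the other APC/C genes was not tested. None of the falls reached those of CDC20 or UBE2C: the lowest value was -0.78 for ANAPC11 in MOLM-13 and -0.64 for ANAPC15 in OCI-AML2. ANAPC16 rose in both lines, by 0.25 ± 0.0496 in MOLM-13 and 0.18 ± 0.0631 in OCI-AML2, where it was not called with library totals as the only scaling or without selinexor library 2 or vehicle library 1 (0.12 to 0.16). CDC16 rose in MOLM-13, by 0.19 ± 0.0597 (SE). The second activator, the second ubiquitin-conjugating enzyme and the inhibitors were 5 genes that all fell in both lines (median -1.25 in MOLM-13 and -0.71 in OCI-AML2). Among them, UBE2S, which extends ubiquitin chains after UBE2C, stood at -1.25 ± 0.0469 in MOLM-13 and -1.32 ± 0.0436 in OCI-AML2. MAD2L1, the checkpoint protein that holds CDC20, stood at -1.51 ± 0.0565 in MOLM-13 and -0.95 ± 0.0735 in OCI-AML2, and FBXO5 (EMI1), an inhibitor of the APC/C, at -1.27 ± 0.0745 in MOLM-13 and -0.71 ± 0.0742 in OCI-AML2. Of the 13 listed substrates outside the set 12 were tested, and 12 fell in each line (median -1.54 in MOLM-13 and -0.92 in OCI-AML2), among them HMMR at -1.81 ± 0.0789 in MOLM-13 and -1.37 ± 0.0735 in OCI-AML2 and RRM2, a subunit of ribonucleotide reductase, at -1.78 ± 0.0479 in MOLM-13 and -1.03 ± 0.0415 in OCI-AML2.

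**Figure D5:**
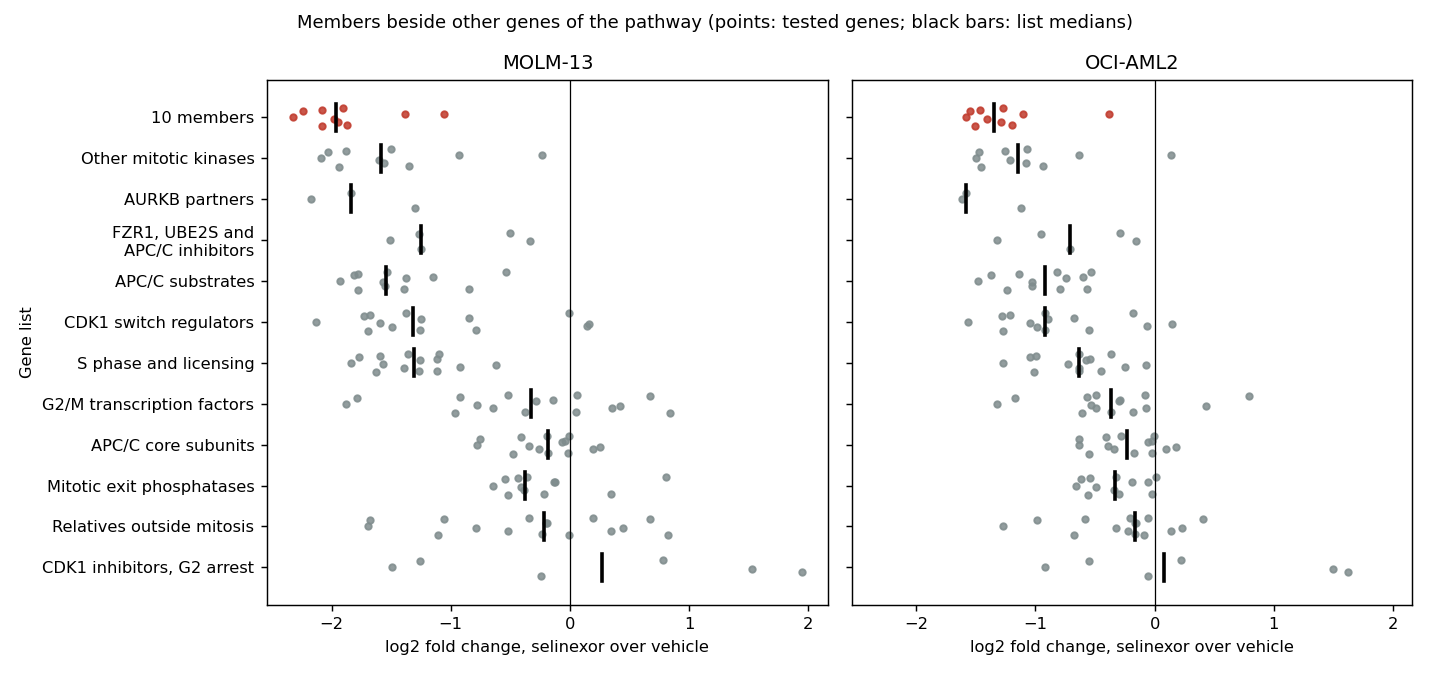
Log2 fold change, selinexor over vehicle, of the 10 members (red) and of 11 lists of other genes (grey) in MOLM-13 (left) and OCI-AML2 (right). Each point is a tested gene and black bars are list medians. Some genes are shared between lists. The median of the members is -1.96 in MOLM-13 and -1.35 in OCI-AML2, and that of APC/C core subunits is -0.19 in MOLM-13 and -0.23 in OCI-AML2.

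Genes of other cell cycle stages fell too. All 14 S phase and origin licensing genes fell in MOLM-13 (median -1.31) and 13 of the 14 in OCI-AML2 (median -0.63). The share called lower over all tested genes was 31.8% in each line. TYMS, which makes thymidylate, stood at -1.77 ± 0.0431 in MOLM-13 and -1.01 ± 0.0439 in OCI-AML2, and MCM4, a subunit of the replicative helicase, at -1.39 ± 0.0354 in MOLM-13 and -0.73 ± 0.0387 in OCI-AML2. Their summed level was 1623 to 1631 CPM with selinexor and 3951 to 4012 CPM with vehicle in MOLM-13, and 2679 to 2710 CPM with selinexor and 4051 to 4172 CPM with vehicle in OCI-AML2. The part of the S phase genes in the fall of the 10 genes was not tested, nor was that of the myeloid, endothelial and epithelial markers given above.

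Most transcription factors of G2 and M genes fell and a few rose. Over all tested genes 31.8% were called lower in each line, and 31.8% higher in MOLM-13 and 31.3% in OCI-AML2. Of 16 tested in MOLM-13, 10 fell and 3 rose (median -0.33), and of 15 tested in OCI-AML2, 11 fell and 2 rose (median -0.37). FOXM1, which activates late cell cycle genes, stood at -1.79 ± 0.0746 in MOLM-13 and -1.32 ± 0.0668 in OCI-AML2, and MYBL2 (B-MYB), its partner on MuvB, at -1.88 ± 0.0465 in MOLM-13 and -1.17 ± 0.0429 in OCI-AML2. LIN54, the DNA-binding subunit of MuvB, had 0.35 ± 0.0891 in MOLM-13 and -0.37 ± 0.0941 in OCI-AML2, called in opposite directions. TFDP2 rose by 0.84 ± 0.0882 in MOLM-13 and 0.79 ± 0.0760 in OCI-AML2, and RBL2 (p130), the pocket protein of the repressor DREAM, by 0.42 ± 0.0516 in MOLM-13 and 0.44 ± 0.0503 in OCI-AML2.

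Phosphatases of mitotic exit and their inhibitors had medians nearer 0 than the 10 genes. Of 12 tested in each line, 9 fell and 2 rose in MOLM-13 (median -0.38) and 7 fell and 0 rose in OCI-AML2 (median -0.33). ENSA, an inhibitor of PP2A-B55, stood at -0.65 ± 0.0397 in MOLM-13 and -0.34 ± 0.0425 in OCI-AML2, and PPP1CC, a catalytic subunit of PP1, at -0.36 ± 0.0367 in MOLM-13 and -0.54 ± 0.0416 in OCI-AML2. The genes that rose in MOLM-13 were PPP2R2D, by 0.34 ± 0.0673 (SE), and CDC14B, by 0.80 ± 0.332, the second not called under 5 alternatives. Among relatives of the members with roles outside mitosis, 9 of 16 were lower and 4 higher in MOLM-13 (median -0.22), against 31.8% lower and 31.8% higher over tested genes. In OCI-AML2 8 of 15 were lower and 2 higher (median -0.16), against 31.8% lower and 31.3% higher over tested genes. CDC25A, CDC25B and CDK2 in this list were also counted among the regulators of the CDK1 switch above, and each fell in both lines. The list is therefore not free of genes that act on mitosis. CDC25A and CDC25B, the other CDC25 phosphatases, had lower log2 fold changes than CDC25C in both lines, CDC25A at -1.68 ± 0.0794 in MOLM-13 and -1.27 ± 0.0605 in OCI-AML2 and CDC25B at -1.69 ± 0.0940 in MOLM-13 and -0.99 ± 0.0662 in OCI-AML2. CCNA1, the cyclin A of germ cells that some myeloid leukaemias express, rose by 0.67 ± 0.0567 in MOLM-13 and 0.41 ± 0.111 in OCI-AML2, opposite to CCNA2. The others that rose were PLK2, by 0.45 ± 0.146, PLK3, by 0.83 ± 0.149, and CCND2, by 0.34 ± 0.131, in MOLM-13, and CDK6, by 0.23 ± 0.0413, in OCI-AML2 (SE). CCND2 was not called under 5 alternatives.

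Outside the set and without regard to function, the genes nearest to the members' median pair of log2 fold changes were DEPDC1B, CDCA3, SKA3, KIF15, DEPDC1, NUF2, NEK2 and KIF4A. They were taken from 4675 genes called in both lines with a mean of at least 5 CPM in each, after a filter on names. The filter dropped symbols that look like clone, antisense or open reading frame identifiers, and its pattern can also match ordinary gene names. Distance was Euclidean (0.0666 to 0.127 on the log2 scale) over the 2 comparisons. DEPDC1B, the nearest, had -1.95 ± 0.111 in MOLM-13 and -1.42 ± 0.0800 in OCI-AML2 (SE), and KIF4A, a chromosome-bound kinesin, had -1.90 ± 0.0960 in MOLM-13 and -1.46 ± 0.0754 in OCI-AML2.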

How the data were processed

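The 12 paired-end libraries, 3 in each of 4 groups, were poly(A)-selected and kept no strand, per the labels' protocols. The submitters' processing notes name STAR with hg38, R 3.6.1 and DESeq2. Neither tool nor annotation for counting was named in the sources used here, so how reads shared with pseudogene copies were assigned is not known. The authors deposited 1 table of raw counts by gene symbol for each line and for MOLM-13 a table of log2 fold changes and their standard errors, from which only the 10 genes' values are quoted. A table's initial gave the line and a column's letter the treatment. A library number is only a name, given by column order.

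Tests were made in R 4.3.3 with edgeR 4.0.16 (quasi-likelihood, robust), after TMM scaling and a filter (filterByExpr) with a minimum count of 10 and a minimum total of 15, with Benjamini-Hochberg adjustment over all tested genes with a threshold of 0.05. Each line was fitted alone. The SE of a log2 fold change is its absolute value divided by the square root of edgeR's F statistic. Confidence intervals use that SE and a t distribution. The interaction and the contrasts between lines used 12 libraries and the genes in both tables. CPM are TMM-scaled within a line, and RPKM use joint scaling and GENCODE 29 union exon lengths, which overstate the length of short isoforms. Other settings tried were scaling by DESeq2's size factors, by upper quartile or by library totals only, testing without the filter, with DESeq2 1.42.0, with limma 3.58.1 voom or with both lines in 1 fit, and omitting each library. On simulated counts edgeR recovered 51 of 56 genes changed 2-fold in MOLM-13 (6 unchanged genes called of 11710 genes in the step), 58 of 64 in OCI-AML2 (6 called of 11991) and 62 of 74 for the interaction (14 called of 12300). Only a small share of genes was changed there, in both directions, and the other genes had the same mean in all libraries. In MOLM-13 itself 31.8% of tested genes were called lower and 31.8% higher. The simulation therefore does not show how often the test errs when changes are that common.

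The 10 genes and the 11 lists were chosen with earlier results of these data known. The text names the 10 genes, XPO1, CDKN1A, up to 4 genes a list with the smallest p in either line, genes of lists in which 5 or fewer moved in a direction, and the 8 nearest genes. WEE1, LIN54 and the lists' extreme values come under these parts. Marker levels and count ratios are descriptions. The floor of 3 counts covers counting error only.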

Additional observations from a re-analysis of the deposited data

Results flagged for a closer look

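The response to selinexor differed between the lines for the 10 genes by a test of the difference itself, the interaction of line and treatment in edgeR, with lower values in MOLM-13. The difference, MOLM-13 minus OCI-AML2 on the log2 scale, was -0.94 for CDK1, -0.59 for CCNA2, -0.78 for CCNB1, -0.75 for CCNB2 and -0.72 for CDC25C. It was -0.70 for PLK1, -0.33 for AURKA, -0.34 for AURKB, -0.49 for CDC20 and -0.97 for UBE2C. The largest adjusted p was 0.0109, for AURKB, with all libraries and the main settings. AURKB was not called under 6 of 18 alternatives and AURKA under 1. Without OCI-AML2 vehicle library 2, edgeR's adjusted p was 0.132 for AURKB and 0.0679 for AURKA. The median difference over all tested genes was 0.0485 without that library, against -0.040 with all libraries. The lines were given different doses, 75 nM in MOLM-13 and 200 nM in OCI-AML2, so that line and dose cannot be told apart.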

How the results depend on the processing

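For the falls with selinexor, 130 of 130 recomputed values of the 10 genes kept direction and call in MOLM-13 and 130 of 130 in OCI-AML2, and so did 120 of 120 for MOLM-13 against OCI-AML2 with selinexor. With vehicle, 111 of the values kept both, CCNB2 passed the threshold in 7, and UBE2C, which was not called, changed sign in 2, at -0.0078 with library totals only and -0.00068 without OCI-AML2 vehicle library 2 (range on leaving out 1 library -0.00068 to 0.0424, against 0.0431 with all). Of the interaction values 173 kept direction and call and 7 lost the call, those of AURKA and AURKB given in the report. Over all genes, the number called for the interaction ranged on leaving out 1 library from 1228 to 2084 higher, against 1388 with all libraries, and from 1450 to 2236 lower, against 2380. The highest count of higher genes came without OCI-AML2 vehicle library 2, and the lowest of lower genes without MOLM-13 vehicle library 2. The share of interaction calls that were higher in MOLM-13 was 36.8% with all libraries and 56.8% without MOLM-13 vehicle library 2. It was 56.7%, 56.5% and 55.8% without OCI-AML2 vehicle library 1, 2 or 3. The median interaction over all tested genes was 0.0480, 0.0485 and 0.0501 without those libraries, against -0.040 with all libraries. Without MOLM-13 vehicle library 2 that median was 0.0521. The cause of these shifts was not tested. No paired analysis was possible because the columns carry no replicate numbers. Depth limits CDC25C most, with 58 to 181 counts in a library.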
